A study of Mus musculus with 25 samples.

Results

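Whole esophagus of adult mice that had lost KEAP1 was compared with wild-type esophagus across all genes measured. The comparison holds 8 of the 25 libraries of the study, taken by genotype label from the adult experiment: 4 from KEAP1flox/flox::K5CreERT2 mice and 4 from wild-type mice. Both groups were 6 to 9 weeks old and were sampled 1 week after tamoxifen at 100 µg/g. In the K5CreERT2 driver, the keratin 5 promoter, active in basal cells of squamous epithelia, drives a Cre recombinase that tamoxifen switches on, so muscle, stroma, vessels and blood cells of the wall were sequenced with the recombined epithelium. The labels do not say whether the wild-type mice carried the driver or floxed alleles, nor that each library came from its own animal, so the tests rest on library-to-library spread, which may be technical. For comparison, 4 adult NRF2L30F/L30F::K5CreERT2 libraries were used. Their mice had the same age and tamoxifen schedule and carry the L30F substitution in NRF2 on both alleles. Also used were 3 KEAP1flox/flox::K5Cre and 3 wild-type pup libraries, from mice 7 to 10 days old in which K5Cre acts without tamoxifen. Another 4 adult libraries, from NRF2L30F/+::K5CreERT2 heterozygotes of the same age and schedule, and 3 NRF2L30F/L30F::K5Cre pup libraries shared the fits. They entered the gene filter and the estimate of spread, and no comparison given here was made against them. In fits with the striated muscle covariate described below, the heterozygotes also helped set its slope. Log2 values and counts given with that covariate therefore depend partly on the heterozygotes.

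KEAP1 is the adaptor of a CUL3 ubiquitin ligase that binds the transcription factor NRF2 (gene Nfe2l2) and keeps it at a low level by directing it to the proteasome. When KEAP1 is lost or its cysteines are modified, NRF2 accumulates, pairs with small MAF proteins and binds antioxidant response elements near genes for glutathione synthesis, thioredoxin recycling, conjugation and export of electrophiles, and NADPH supply. The mouse esophagus is lined by a keratinising stratified squamous epithelium in which basal cells divide, then stop dividing, make the keratin pair Krt4 and Krt13, and end as flattened cornified cells. Outside the epithelium lie a collagen-rich stroma with vessels and resident immune cells and a wall that in mice is mostly striated muscle.

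The core antioxidant response element, TGACNNNGC, was looked for on both strands in promoter windows running from 250 bases before to 50 bases after the start site. Sequences are shown for 10 genes of the NRF2 target lists that were called higher after KEAP1 loss and hold it wholly before the start site. The letters thus stand beside the levels given below. Motifs that reach past the start site, and those on 1 chromosome, are counted in the shares below but not shown. Each is printed 5′ to 3′ on the strand of the gene, with the motif, as TGACNNNGC or as its reverse complement GCNNNGTCA, in capitals:
Prdx1: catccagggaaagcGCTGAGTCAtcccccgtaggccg
Txnrd1: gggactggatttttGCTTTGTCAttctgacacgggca
Gclm: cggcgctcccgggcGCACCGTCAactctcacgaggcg
Gsta3: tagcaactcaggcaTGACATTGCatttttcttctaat
Mgst1: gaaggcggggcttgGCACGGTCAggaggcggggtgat
Abcc4: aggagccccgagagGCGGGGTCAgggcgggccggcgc
Abcc2: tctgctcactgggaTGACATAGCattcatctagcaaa
Ugdh: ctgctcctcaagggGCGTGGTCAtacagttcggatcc
G6pdx: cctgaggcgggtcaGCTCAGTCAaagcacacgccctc
Blvra: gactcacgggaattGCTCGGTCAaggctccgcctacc
They lie at chr4:116685452-116685488 on the plus strand for Prdx1, chr10:82859100-82859136 on the plus strand for Txnrd1, chr3:122245409-122245445 on the plus strand for Gclm, chr1:21240450-21240486 on the plus strand for Gsta3, chr6:138140457-138140493 on the plus strand for Mgst1, chr14:118706222-118706258 on the minus strand for Abcc4, chr19:43782196-43782232 on the plus strand for Abcc2, chr5:65435914-65435950 on the minus strand for Ugdh, chrX:74428915-74428951 on the minus strand for G6pdx and chr2:127070594-127070630 on the plus strand for Blvra. Abcc4 has a window at each of 2 start sites and Ugdh 2 in 1 promoter, of which 1 each is shown. The sequences are from RefSeq, build GRCm38.p6, and the promoter table covers 12778 of the genes tested. Of those, 16.4% hold the motif, against 16.7% of 3474 genes called higher, 16.2% of 3003 called lower and 16.4% of 6301 not called. Among genes called at least 4-fold higher the share was 15.5% of 594. By list, 3 of 8 glutathione synthesis genes, 3 of 7 exporters, 3 of 14 thioredoxin system genes, 4 of 21 glutathione S-transferases and 2 of 24 quinone and carbonyl enzymes hold it. So do 3 of 12 genes of the pentose phosphate pathway and NADPH production and 1 of 6 of heme breakdown and iron storage. Gstm5, which was called lower, and list members that were not called also hold it before the start site and are not shown. These are descriptions of letters in a 300-base window, and a window without them says nothing about NRF2 binding.

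Loss of KEAP1 for 1 week moved nearly as many genes up as down, with the larger changes on the upward side. Of 19857 genes tested, 9290 (46.8%) passed an adjusted p of 0.05 in limma and are termed called, 4781 (24.1%) higher and 4509 (22.7%) lower. At least 4-fold changes were found for 858 genes higher and 432 lower, and at least 16-fold changes for 165 and 43. The median size of a called change was 0.76 on the log2 scale, and the median over all genes tested was -0.01. Of the 19857 genes tested, 9938 did not overlap between the groups, so lack of overlap alone is common. It was also required of the largest rises and falls that were named by rule, and for those it is built in. Of 847 genes in the 58 lists described below, 587 (69.3%) were called. The count of each list without a covariate is to be read against the 24.1% called higher and 22.7% called lower among all genes. Counts with the striated muscle covariate described below have a lower background: with it, 1823 of 19857 genes were called higher and 1684 lower.

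**Figure D1:**
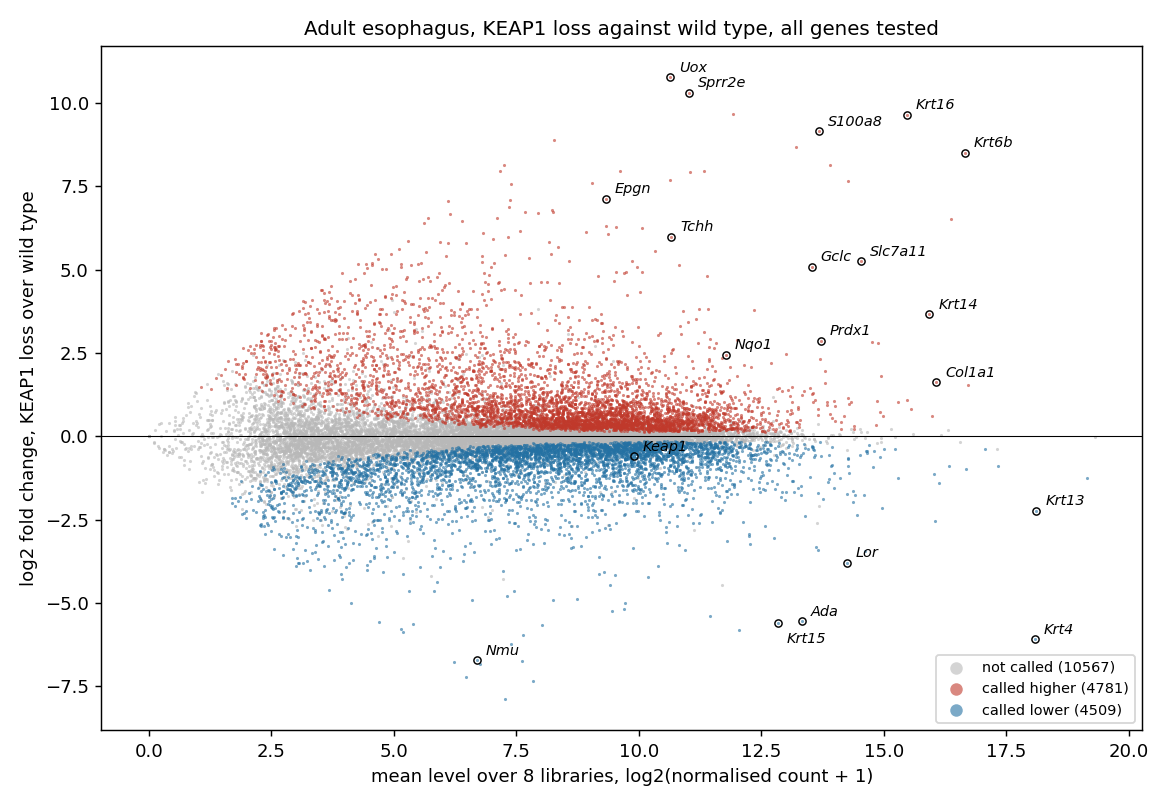
Each point is a gene: mean level over the 8 libraries (x axis, log2 of normalised count + 1) against the log2 fold change of KEAP1 loss over wild type (y axis), with called genes coloured by direction and 20 genes named. The 165 genes that rose at least 16-fold include Uox, Krt16 and Slc7a11, and the 43 that fell that far include Krt4, Krt15 and Ada.

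Depth was close between the groups, with 27.5 to 32.3 M reads per wild-type library and 22.5 to 31.3 M per KEAP1-deficient library. Wild-type library 4 stood apart from the other 3: it was high on 456 and low on 254 of 17334 genes by a gap-to-range criterion, against 92 to 127 and 56 to 71 in the others. Without it 8842 genes were called. Striated muscle transcripts were lower after KEAP1 loss: 18 of 22 tested members of the list fell, and the list summed to 1278280 to 1479320 normalised counts in wild type and 457225 to 692579 after KEAP1 loss. The mean log2 value of that list ran from 12.74 to 13.07 in wild type and from 11.69 to 12.14 after KEAP1 loss, so it separates the groups by itself. With it as a covariate 3507 genes were called, 1823 higher and 1684 lower, 3309 of them also called without it and in the same direction. Precision was lower with it: the SE of Krt5 was 0.29 against 0.14 without it, at log2 values of 0.82 and 0.81. Some calls lost below came with smaller values and others with values as large or larger, so a lost call does not by itself mean a smaller change. In bulk tissue, fewer cells of a type and less RNA per cell cannot be told apart, and this holds for each cell type below. Levels are normalised counts, in the order of libraries 1 to 4 of each group, and log2 fold changes are on the log2(count + 1) scale, which understates changes of low genes.

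The targeted gene, Keap1 (ENSMUSG00000003308), fell but did not disappear, NRF2's own transcript fell slightly, and its classical target Nqo1 rose. Keap1 gave 1160.3, 1164, 1192 and 1077 in wild type and 732, 812, 721 and 765 after KEAP1 loss. Every KEAP1-deficient library lay below every wild-type library, but transcript remained (log2 fold change -0.60, SE 0.07, adjusted p = 8e-06); reads were summed over the gene, and the labels do not say which exons are floxed. Nfe2l2 (ENSMUSG00000015839) gave 6110.4, 5203, 5638 and 5695 in wild type and 4231, 4209, 4403 and 4364 after KEAP1 loss, without overlap (log2 fold change -0.39, SE 0.12, adjusted p = 0.011). Nqo1 (ENSMUSG00000003849), the quinone reductase used as a readout of NRF2, gave 1240.3, 984, 1035 and 1094 in wild type and 6333, 6156, 5766 and 5546 after KEAP1 loss. All 4 KEAP1-deficient libraries stood several-fold above all 4 wild-type libraries, a 5.48-fold rise (log2 fold change 2.45, SE 0.13, adjusted p = 1.1e-09). Of 12 genes of the NRF2 system, 1 rose, the competing repressor Bach1 (log2 fold change 0.75), and 5 fell: Keap1, Nfe2l2, its relative Nfe2l1 (-0.47), the ligase scaffold Cul3 (-0.27) and the repressor Bach2 (-0.94). The autophagy adaptor Sqstm1, which binds KEAP1, had a log2 value of 0.16 and did not pass. With the striated muscle mean as a covariate, Nfe2l2, Nfe2l1 and Cul3 no longer passed, at -0.41, -0.20 and -0.17 on the log2 scale against -0.39, -0.47 and -0.27 without it. With this covariate the counts higher and lower were 1 and 2 for NRF2 system genes.

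Glutathione supply rose as a group: 6 of 9 tested genes of cystine import and glutathione synthesis were higher and 1 lower, with a list median of 2.25 against -0.01 over all genes. Slc7a11, the cystine-glutamate antiporter, gave 1057, 1271, 1100.1 and 1412 in wild type and 54147, 45541, 41317 and 44579 after KEAP1 loss. Gclc, the catalytic subunit of the rate-limiting enzyme of glutathione synthesis, gave 681, 635, 704 and 661 in wild type and 25869.7, 24757, 20233 and 21044 after KEAP1 loss. Both groups were tight, and the lowest KEAP1-deficient value of each gene lay far above the highest wild-type value, rises of 38.4-fold (log2 fold change 5.26, SE 0.12, adjusted p = 1e-13) and 34.1-fold (log2 fold change 5.09, SE 0.15, adjusted p = 5e-12). The modifier subunit Gclm, glutathione synthetase Gss and the antiporter's partner chain Slc3a2 rose 4.76-fold, 4.76-fold and 4.23-fold, and glutathione reductase Gsr, which returns oxidised glutathione to use, rose 8.45-fold. The 1 gene that fell was Chac1, which degrades glutathione (log2 fold change -0.85, SE 0.23, adjusted p = 0.0063). In the thioredoxin list 8 of 15 genes rose and 3 fell. Srxn1, which repairs overoxidised peroxiredoxins, gave 951, 1082, 1134 and 745 in wild type and 8854, 6964, 5745 and 7238 after KEAP1 loss, without overlap (7.36-fold). Prdx1, whose promoter window is shown above, gave 3287, 3145, 3273 and 3281 in wild type and 26077, 24472, 20310.2 and 24075 after KEAP1 loss, also without overlap (log2 fold change 2.86, SE 0.13, adjusted p = 1.6e-10). Txnrd1, which reduces thioredoxin, and Txn1 itself rose 2.50-fold and 1.84-fold, whereas Txnip, which binds and restrains thioredoxin, fell 1.79-fold and Prdx2 fell 1.35-fold. Among glutathione peroxidases, catalase and superoxide dismutases, 5 of 10 rose and 2 fell, and no member changed more than Gpx2 (2.10-fold), an epithelial peroxidase. The muscle covariate ended the calls of Chac1, Txnip and Prdx2, with log2 fold changes of -0.07, -0.33 and -0.45 against -0.85, -0.84 and -0.43 without it. Counts higher and lower under that covariate were 7 and 1 for thioredoxin system genes and 4 and 0 for peroxidase and dismutase genes.

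**Figure D2:**
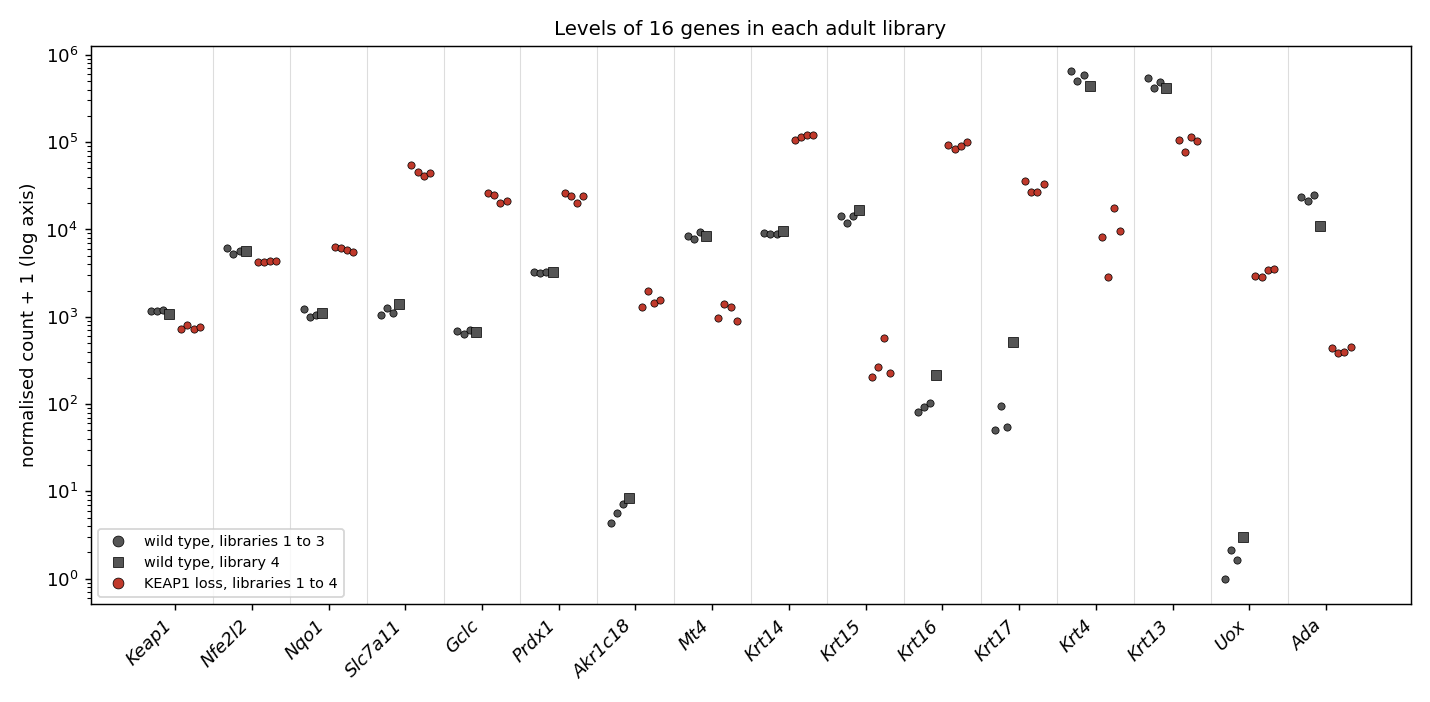
Normalised counts (log axis, count + 1) of 16 genes in the 4 wild-type and 4 KEAP1-deficient adult libraries, 1 point per library. Slc7a11, Gclc, Krt16 and Uox rise in all 4 KEAP1-deficient libraries, Krt4, Krt15 and Ada fall in all 4, and wild-type library 4, drawn as a square, is the highest wild-type point for Krt16 and Krt17.

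Conjugating and reducing enzymes split: 10 of 23 tested glutathione S-transferases rose and 7 fell, and 14 of 25 quinone, carbonyl and epoxide enzymes rose and 5 fell. The alpha-class Gsta3 gave 69.8, 57.4, 48.5 and 85.4 in wild type and 1035, 962, 917 and 879.9 after KEAP1 loss, a rise of 14.6-fold without overlap (log2 fold change 3.87, SE 0.16, adjusted p = 1.2e-10). The membrane-bound Mgst1 gave 811, 834, 751 and 750.1 in wild type and 1571, 1689, 1480.0 and 1547 after KEAP1 loss, without overlap. Gsta1, Gstm1 and Gsto1 rose 14.2-fold, 7.08-fold and 6.93-fold, while the mu-class Gstm3 fell 4.67-fold and Gstm5 fell 1.92-fold; reads of such close paralogs can be assigned to the wrong copy, so the values of single members of the Gsta, Gstm and Akr1c families are uncertain. Akr1c18, an aldo-keto reductase that inactivates progesterone, gave 3.39, 4.64, 6.22 and 7.39 in wild type and 1277, 1993, 1433 and 1568 after KEAP1 loss, and Akr1c19 gave 1.35, 0.580, 3.11 and 1.34 in wild type and 341, 319, 329 and 328 after KEAP1 loss. Both were near 0 in all wild-type libraries and at 319 or more in all KEAP1-deficient libraries (log2 fold change 7.96, SE 0.33, adjusted p = 1.2e-10 and log2 fold change 7.08, SE 0.34, adjusted p = 4.7e-10). Akr1b8, carbonyl reductases Cbr1 and Cbr3, and Ugdh, which makes UDP-glucuronate for glucuronidation, rose 14.1-fold, 2.68-fold, 2.80-fold and 2.42-fold. Aldehyde oxidase Aox1 fell 5.04-fold. Aldehyde dehydrogenases went both ways, 5 of 14 up and 6 down: Aldh1a3, which makes retinoic acid, rose 10.6-fold and Aldh1l1 of folate metabolism rose 4.50-fold, while Aldh1a1, Aldh1a7 and Aldh3a1 fell 3.29-fold, 7.30-fold and 2.36-fold. Not called with the muscle covariate was Mgst1, at 0.90 on the log2 scale against 1.00 without it. The covariate changed the counts higher and lower to 8 and 3 for glutathione S-transferases and 13 and 2 for quinone, carbonyl and epoxide enzymes.

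Of 10 exporters of conjugates and drugs 6 were higher and 1 lower. Abcc4, an efflux pump for conjugates and nucleotides, gave 738, 703, 806 and 817 in wild type and 6102, 5739.8, 4760.1 and 4900.2 after KEAP1 loss, without overlap (6.98-fold), and Abcc3, Abcc1 and the heme transporter Slc48a1 rose 2.92-fold, 2.26-fold and 2.23-fold. Abcc2, of the same transporter family, held few reads and gave 0, 2.32, 3.73 and 0.672 in wild type and 7.32, 8.79, 4.51 and 7.28 after KEAP1 loss (log2 fold change 1.79, SE 0.47, adjusted p = 0.0052). Of 12 genes of the pentose phosphate pathway and NADPH production, 5 rose, 2 fell and 5 did not pass. Tkt, Taldo1 and G6pdx rose 2.14-fold, 2.06-fold and 1.70-fold, and Pgls and Idh2 fell 1.30-fold and 1.22-fold, but Idh2 overlapped between groups. Its call was lost without wild-type library 2 or 4 or KEAP1-deficient library 1 or 3 (adjusted p from 0.066 to 0.088 in limma). The NADPH-producing Pgd, often listed with NRF2 targets, had a log2 value of 0.17 and did not pass. In the list of heme breakdown and iron storage 5 of 9 rose and 1 fell. The biliverdin reductase Blvrb gave 459, 370.4, 443 and 376 in wild type and 2195, 2046, 1822 and 1816 after KEAP1 loss, and all KEAP1-deficient values lay above all wild-type values (log2 fold change 2.26, SE 0.14, adjusted p = 5.4e-09). Its counterpart Blvra rose 1.67-fold, and the ferritin chains Ftl1 and Fth1, which store iron, rose 2.44-fold and 1.59-fold. Heme oxygenase Hmox1 gave 1749.6, 1857, 2288 and 1137 in wild type and 2172, 2229, 1591 and 2259.8 after KEAP1 loss, and the groups overlapped (log2 fold change 0.26, adjusted p = 0.43). Metallothioneins diverged: Mt3 gave 41.3, 57.4, 66.0 and 27.6 in wild type and 1877, 2111, 1481 and 1772 after KEAP1 loss and Mt4, a metallothionein of squamous epithelia, gave 8519.9, 7851, 9381 and 8480.4 in wild type and 972, 1408, 1310.3 and 899 after KEAP1 loss. Mt3 was higher in all 4 KEAP1-deficient libraries (38.5-fold) and Mt4 lower in all 4 (7.57-fold), while Mt1 and Mt2 overlapped. Of 31 proteasome genes 26 rose and none fell, by small margins, with Psma5 (1.78-fold) and Psma7 (1.69-fold) the largest and a list median of 0.35. Adding the muscle covariate removed the calls of Abcc2 and Idh2, whose log2 values were 2.15 and -0.22 with it and 1.79 and -0.29 without it. Under the same covariate, counts higher and lower were 4 and 0 for exporters, 4 and 1 for NADPH genes and 4 and 0 for heme and iron genes.

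The keratins of the epithelium were exchanged. Stress keratins rose from low levels to very high ones, and the main suprabasal keratin pair fell. Krt16 gave 79.3, 91.6, 101 and 216 in wild type and 92415, 82593, 89329 and 99103 after KEAP1 loss, and Krt6b gave 530.4, 472, 345 and 1176 in wild type and 195671, 194050, 211526 and 220937 after KEAP1 loss. Krt17 gave 49.4, 93.9, 53.5 and 516 in wild type and 35812, 26829, 26699 and 33038 after KEAP1 loss, with wild-type library 4 highest in its group. All 4 stress keratins, Krt6a included, were called higher, with log2 fold changes of 9.64 for Krt16, 8.50 for Krt6b, 8.14 for Krt17 (adjusted p = 6.7e-05) and 6.53 for Krt6a. Krt6a and Krt6b are near-identical genes, so reads may be split between them. Their 4 transcripts summed to 1915 to 6352 in wild type, the top of that range being library 4, and 457066 to 537170 after KEAP1 loss. Without library 4 the value of Krt17 was 8.89. These keratins are known from wound edges and hyperproliferative squamous epithelium.

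Krt4 gave 647711, 501360, 593501 and 436308 in wild type and 8286, 2821, 17644 and 9485 after KEAP1 loss, and its partner Krt13 gave 542698, 421066, 490498 and 420599 in wild type and 105016, 77608, 115991 and 103140 after KEAP1 loss. Neither overlapped; Krt4 fell 68.1-fold (log2 fold change -6.09, SE 0.40, adjusted p = 2.5e-08) and Krt13 4.69-fold (log2 fold change -2.23, SE 0.14, adjusted p = 7.7e-09), so the pair did not fall by the same factor. Krt78, a further differentiation keratin, fell 10.6-fold, and the calmodulin-like Calml3 fell 8.32-fold. Of 23 suprabasal genes tested 3 rose and 11 fell (median -0.60). Desmosomal cadherins split, Dsg3 and Dsc2 rising 1.91-fold and 2.03-fold and Dsc1 and Dsg1a falling 3.74-fold and 2.90-fold, while Dsg1b (0.06) and the plaque protein Pkp1 (-0.04) did not pass. In the basal list, 7 of 18 rose and 6 fell. Krt14, the basal keratin, gave 9116, 8772, 8839 and 9625 in wild type and 106556, 114751, 121656 and 120306 after KEAP1 loss, and Krt15, a keratin of resting basal cells, gave 14267, 11943, 14445 and 16569.6 in wild type and 202, 267, 575 and 226 after KEAP1 loss. The first was higher in all KEAP1-deficient libraries (12.7-fold, adjusted p = 1.2e-07) and the second lower in all (48.9-fold, adjusted p = 6.8e-10). The squamous transcription factor Sox2 fell 2.51-fold, whereas Trp63 gave 4398, 4149, 4556 and 3994 in wild type and 4451, 5391, 4705 and 4251 after KEAP1 loss, which overlapped (log2 fold change 0.13, SE 0.10, adjusted p = 0.32). Krt5, the keratin whose promoter drives the Cre, rose 1.76-fold, and the cadherin Cdh3 rose 3.41-fold. The defining squamous markers Krt5, Krt14, Trp63, Sox2, Krt4 and Krt13 were detected in all 8 libraries. Under the muscle covariate the calls of Dsg3, Dsc2 and Krt5 did not hold, with log2 values of 0.89, 0.86 and 0.82 against 0.93, 1.02 and 0.81 without it. With this covariate the counts higher and lower were 0 and 7 for suprabasal genes and 4 and 3 for basal genes.

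**Figure D3:**
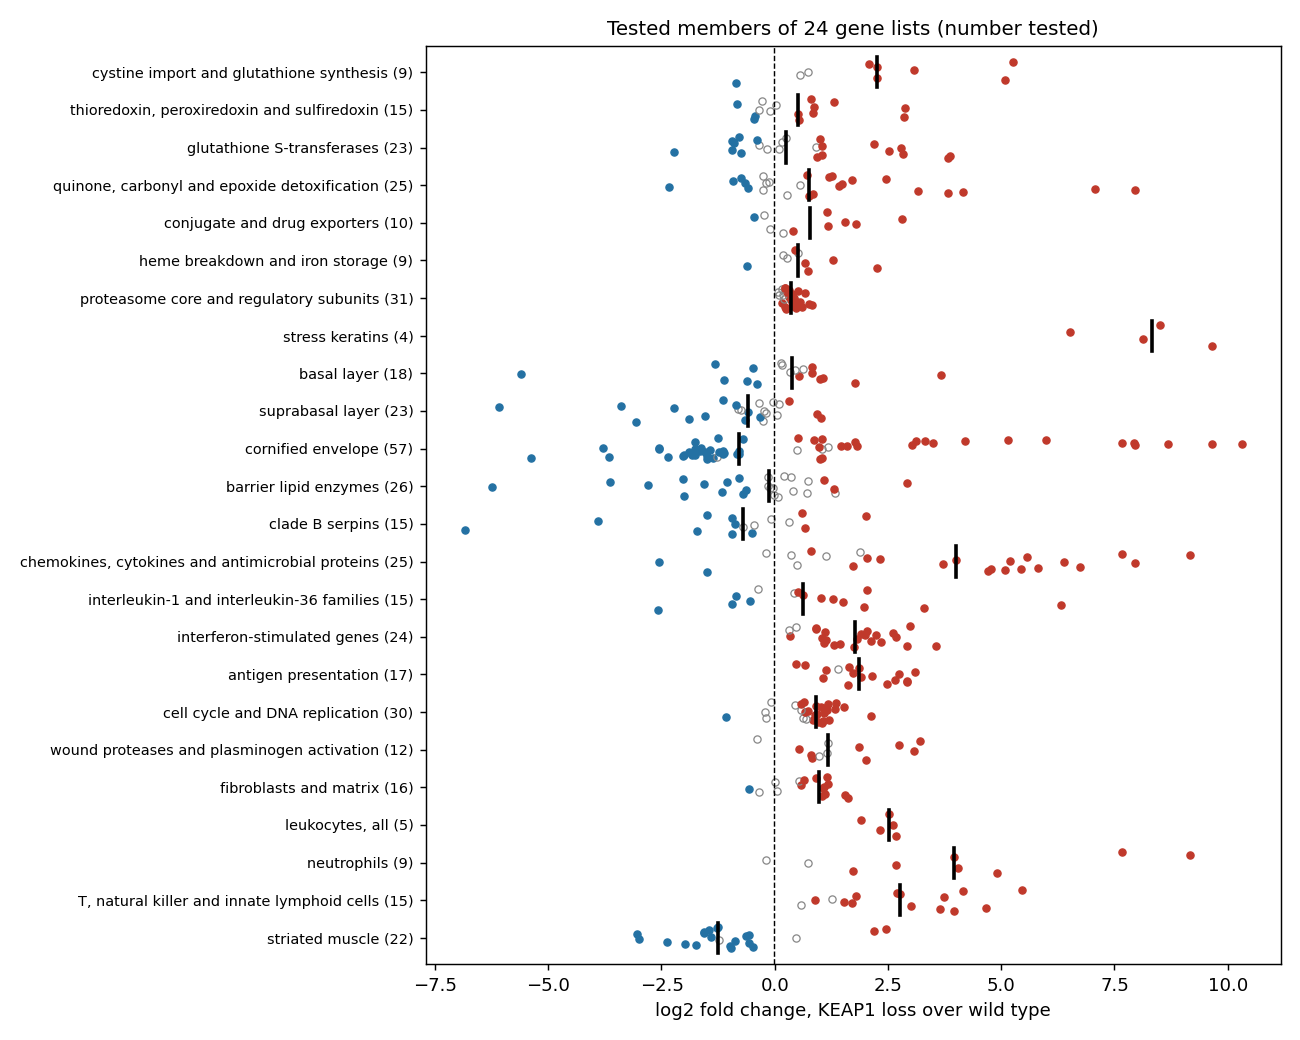
Log2 fold change of KEAP1 loss over wild type (x axis) for every tested member of 24 gene lists (rows), filled where called (red higher, blue lower), with a bar at the list median and a dashed line at the median of all genes tested. Stress keratins lie furthest to the right, neutrophil and chemokine lists follow, and striated muscle lies to the left with Tnnt1 and Tnni1 as exceptions.

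Cornified envelope genes split by subfamily, with 23 of 57 higher and 30 lower (median -0.80). Sprr2 genes, small proline-rich precursors of the envelope, rose furthest. Sprr2e gave 1.35, 5.22, 1.24 and 2.02 in wild type and 4773, 3217, 2949 and 5656 after KEAP1 loss, and Sprr2f gave 6.77, 5.22, 8.71 and 14.1 in wild type and 9787, 5424, 5418 and 10463 after KEAP1 loss. No wild-type library passed 14.1 and no KEAP1-deficient library lay under 2949, with log2 fold changes of 10.31 (SE 0.73) and 9.66 (SE 0.53). Sprr2d, Sprr2b, Sprr2i and Sprr2h followed with log2 values from 7.68 (Sprr2h) to 8.67 (Sprr2d); without wild-type library 4, Sprr2d was at 9.45 and Sprr2b at 8.72, and without library 1 Sprr2b was at 7.29. These genes are close copies on chromosome 3, so their single values are uncertain. Trichohyalin Tchh, a hair-follicle and tongue envelope protein, gave 55.5, 38.3, 39.8 and 64.5 in wild type and 3406, 2799, 2581 and 3987 after KEAP1 loss, without overlap (63.8-fold). Tgm6, a transglutaminase, had no read in any wild-type library and gave 419, 223, 176 and 389 after KEAP1 loss, at least 631-fold higher when the wild-type total is set at a floor of 3 reads. On the falling side, loricrin Lor gave 41602, 38478, 43366 and 20825 in wild type and 4411, 1532, 1819 and 3171 after KEAP1 loss, without overlap (log2 fold change -3.79, SE 0.39, adjusted p = 2.1e-06). Filaggrin Flg, the major protein of keratohyalin granules, gave 4122, 10937, 6140.2 and 709.8 in wild type and 299, 30.4, 34.5 and 189.9 after KEAP1 loss, with library 4 the lowest of wild type (log2 fold change -5.39, SE 0.93, adjusted p = 0.00035; -6.19 without that library). Repetin Rptn, Sprr3, envoplakin Evpl and periplakin Ppl fell 5.86-fold, 3.37-fold, 2.58-fold and 3.09-fold. Late cornified envelope genes fell too, Lce3f by 5.89-fold, and all 19 called Lce1 and Lce3 members were lower. With the striated muscle mean as a covariate, Flg and Sprr3 no longer passed, at -3.21 and -1.59 on the log2 scale against -5.39 and -1.75 without it. Counts higher and lower under that covariate were 16 and 8 for cornified envelope genes.

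Proteases, serpins and lipid enzymes of the barrier also split. Klk6, a kallikrein protease, gave 9.48, 12.2, 11.2 and 14.1 in wild type and 1091, 901, 454 and 1391 after KEAP1 loss, without overlap (log2 fold change 6.14, SE 0.28, adjusted p = 3e-10), while Klk5, which starts desquamation, gave 157, 247, 179 and 86.0 in wild type and 29.9, 15.2, 6.76 and 20.4 after KEAP1 loss and was lower in every KEAP1-deficient library (log2 fold change -3.21, SE 0.43, adjusted p = 1.9e-05). Spink5, the inhibitor of these proteases, rose 1.96-fold. Of 14 genes of the kallikrein list 5 rose and 1 fell. Of 15 clade B serpins 3 rose and 8 fell. Serpinb13 gave 226, 259, 253 and 118 in wild type and 2.25, 0, 0 and 2.18 after KEAP1 loss, a fall to at most a few reads (115-fold), and Serpinb12 and Serpinb3c fell 3.27-fold and 14.9-fold. Of 26 barrier lipid enzymes 3 rose and 11 fell. Far2, a fatty acyl reductase, gave 389, 314, 332 and 298 in wild type and 3.94, 2.40, 3.75 and 3.64 after KEAP1 loss, without overlap (log2 fold change -6.24, SE 0.35, adjusted p = 2.9e-09). The phospholipase Pla2g2f, the lipases Lipk and Lipm and the ceramidase Acer1 fell 12.4-fold, 6.94-fold, 2.95-fold and 4.02-fold, whereas the ceramide transporter Abca12 (0.06) and the elongase Elovl4 (-0.10) did not pass. The muscle covariate ended the calls of Klk5 and Serpinb3c, with log2 fold changes of -1.94 and -3.41 against -3.21 and -3.90 without it. The covariate changed the counts higher and lower to 3 and 0 for kallikrein genes and 2 and 6 for barrier lipid enzymes.

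In the list of EGF receptor family genes and their ligands 5 of 14 rose and 5 fell, and in the interleukin-1 and interleukin-36 families 9 of 15 rose and 4 fell. Epgn, an EGF receptor ligand, gave 8.81, 5.80, 13.7 and 5.38 in wild type and 1379, 1411, 841 and 1479.5 after KEAP1 loss, without overlap (log2 fold change 7.13, SE 0.42, adjusted p = 8.1e-09). Areg, Nrg1 and Hbegf, ligands of the same family, rose 11.3-fold, 7.63-fold and 3.39-fold, while the ligand Egf fell 4.58-fold. The receptors Egfr, Erbb2, Erbb3 and Erbb4 fell 1.45-fold, 1.66-fold, 1.27-fold and 7.45-fold. The call of Erbb3 was lost when any library but wild-type library 4 was left out (adjusted p from 0.053 to 0.11 in limma). Il1b gave 5.42, 13.3, 52.9 and 6.05 in wild type and 1562, 443, 2154 and 950.4 after KEAP1 loss; wild-type library 3 was the highest of its group and KEAP1-deficient library 2 the lowest of its own, and the groups did not overlap (log2 fold change 6.32, SE 0.60, adjusted p = 8e-07; 6.98 without wild-type library 3). Il1a rose 3.90-fold, and Il18, made by resting epithelium, fell 5.99-fold. Not called with the muscle covariate were Egfr and Erbb3, at -0.40 and -0.71 on the log2 scale against -0.54 and -0.35 without it. Under the same covariate, counts higher and lower were 4 and 3 for EGF receptor genes and ligands and 5 and 1 for interleukin-1 and interleukin-36 genes.

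Chemokines, cytokines and antimicrobial proteins were called higher in 18 of 25 cases and lower in 2 (median 4.01). S100a8, one chain of calprotectin, gave 21.0, 26.7, 75.3 and 92.8 in wild type and 24571, 25411, 25872 and 28914 after KEAP1 loss, and the other chain S100a9 gave 148, 127, 221 and 325 in wild type and 35941, 37509, 38622 and 46042 after KEAP1 loss. Neither overlapped (log2 fold change 9.16, SE 1.05, adjusted p = 1.1e-05 for S100a8 and log2 fold change 7.68, SE 0.74, adjusted p = 2.3e-06 for S100a9). The neutrophil attractants Cxcl1, Cxcl2 and Cxcl5 had log2 fold changes of 4.77, 5.44 and 6.73; Cxcl1 was at 4.17 without wild-type library 1 and Cxcl5 at 7.41 without library 2. Defb3, an inducible defensin, held 1 read over the wild-type libraries and gave 226, 270.0, 300.4 and 346 after KEAP1 loss, a ratio of 1792-fold (95% interval 322 to 70794) that covers counting error only. Il19, of the interleukin-20 family, also held 1 read in wild type and was 606-fold (95% interval 109 to 23939) higher, and Il20, with none, was at least 86.7-fold higher. Defb14 and the siderophore-binding Lcn2 rose 13.1-fold and 47.3-fold, whereas Defb4 fell 5.89-fold and the protease inhibitor Slpi did not pass (-0.20). Il17a and Il22, T cell cytokines that act on epithelium, were chosen after their values were seen. Il17a held 2 reads in wild type and gave 113, 44.7, 80.3 and 64.0 after KEAP1 loss, a ratio of 237-fold (95% interval 65.6 to 1957), and Il22, with no wild-type read, gave 20.8, 31.9, 12.01 and 18.9 (at least 43.8-fold higher). Adding the muscle covariate removed the calls of Cxcl2 and Cxcl5, whose log2 values were 4.99 and 4.30 with it and 5.44 and 6.73 without it. With this covariate the counts higher and lower were 12 and 1 for chemokine and antimicrobial genes.

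Transcripts of most leukocyte types tested rose beside them. All 5 general leukocyte markers were higher, and they summed to 1234 to 2282 in wild type and 6174 to 7853 after KEAP1 loss. Ptprc, the pan-leukocyte CD45, gave 293, 317, 487 and 256 in wild type and 1790.4, 1839, 2012 and 1876 after KEAP1 loss, without overlap (log2 fold change 2.51, SE 0.26, adjusted p = 1.5e-06). In the neutrophil list 7 of 9 rose. Csf3r, the receptor for granulocyte colony-stimulating factor, gave 22.4, 70.7, 152 and 25.5 in wild type and 1637, 1143, 2290.2 and 1261 after KEAP1 loss, and the more specific Retnlg gave 3.39, 2.90, 11.8 and 0.672 in wild type and 48.5, 35.1, 110.4 and 108 after KEAP1 loss. Both were higher in all 4 KEAP1-deficient libraries (29.9-fold and 15.6-fold), and Ly6g, with no read in wild type, gave 15.8, 12.8, 17.3 and 16.7. The granule genes Mpo and Ngp gave 0, 1.16, 3.11 and 0 in wild type and 1.69, 13.6, 0.751 and 0 after KEAP1 loss and 2.03, 0, 16.2 and 2.02 in wild type and 4.51, 0.799, 0.751 and 4.37 after KEAP1 loss, respectively, overlapped and did not pass. Most of the summed neutrophil list was S100a8 and S100a9, which squamous cells also make. In the T, natural killer and innate lymphoid list 13 of 15 rose, summing to 148 to 246 and 1353 to 1783. Trdc, the constant chain of the delta T cell receptor, gave 10.2, 18.5, 9.95 and 11.4 in wild type and 593, 537, 617 and 577 after KEAP1 loss, a rise of 44.3-fold without overlap, and the beta chain Trbc2 rose 17.9-fold. Of 15 macrophage and dendritic cell genes 13 rose, from Ccr7 of migrating dendritic cells (42.9-fold) to the complement genes C1qa and C1qb (2.45-fold and 2.56-fold). Of 6 B and plasma cell genes 1 rose, and of 7 mast cell and eosinophil genes 1 rose, Siglecf (19.0-fold), and 3 fell. The part of leukocytes in the cytokine and keratin results was not tested. Under the muscle covariate the calls of Csf3r and Ly6g did not hold, with log2 values of 3.06 and 2.70 against 4.90 and 4.05 without it. Counts higher and lower under that covariate were 4 and 0 for neutrophil genes, 3 and 0 for T and natural killer genes, 5 and 0 for macrophage and dendritic cell genes, 0 and 0 for B cell genes and 1 and 0 for mast cell and eosinophil genes.

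**Figure D4:**
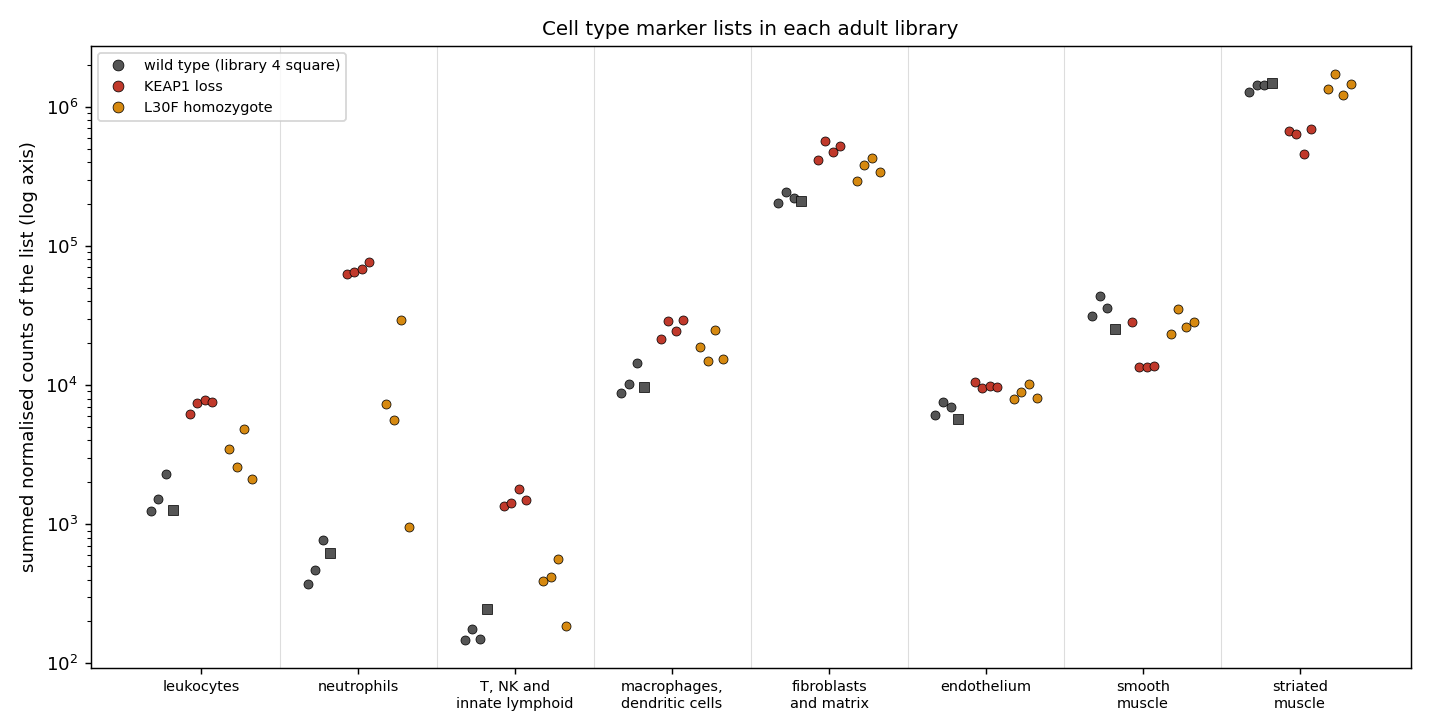
Summed normalised counts (log axis) of 8 cell type marker lists in each of the 12 adult libraries, 1 point per library, with wild type, KEAP1 loss and L30F homozygotes side by side. Leukocyte, neutrophil and T cell sums are higher after KEAP1 loss than in wild type, striated muscle sums are lower, and fibroblast sums are higher.

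Interferon and antigen presentation genes rose in a block: 22 of 24 interferon-stimulated genes and 16 of 17 antigen presentation genes were higher and none lower, with medians of 1.78 and 1.85. Irf7, the transcription factor that amplifies the response, gave 54.9, 103, 90.2 and 108 in wild type and 353, 585, 626 and 736 after KEAP1 loss, and the antiviral Oasl2 gave 97.5, 95.1, 106 and 91.4 in wild type and 330.1, 356, 449 and 495 after KEAP1 loss. Both were higher in all 4 KEAP1-deficient libraries (log2 fold change 2.67, SE 0.25, adjusted p = 5e-07 and log2 fold change 2.04, SE 0.16, adjusted p = 8.5e-08). The T cell attractant Cxcl10, the nucleic acid sensor Zbp1 and Bst2 rose 11.7-fold, 7.90-fold and 3.36-fold. H2-K1, a class I heavy chain, gave 1275, 1386, 1399 and 1432 in wild type and 3885, 4398, 5051 and 4953 after KEAP1 loss, and its light chain B2m gave 1467, 1853, 1958 and 1739 in wild type and 4309, 5073, 6024 and 6148 after KEAP1 loss; neither overlapped (3.31-fold and 3.06-fold). Class II genes, with H2-Aa at 7.59-fold and the activator Ciita at 7.57-fold, and the class I activator Nlrc5 at 8.54-fold rose with them. Leukocyte markers rose in the same libraries, and their part in these lists was not tested. With the striated muscle mean as a covariate, Zbp1 and Ciita no longer passed, at 1.95 and 1.97 on the log2 scale against 2.98 and 2.92 without it. The covariate changed the counts higher and lower to 7 and 0 for interferon-stimulated genes and 6 and 0 for antigen presentation genes.

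Most genes of the cell cycle and DNA replication rose. Of 30 cell cycle genes 22 were higher and 1 lower, with a median of 0.91. Mcm5, a subunit of the replicative helicase, gave 314, 281, 295 and 359 in wild type and 992, 907, 789 and 936 after KEAP1 loss, and cyclin E1, Ccne1, gave 33.2, 33.6, 42.9 and 68.6 in wild type and 202, 202, 159.9 and 196 after KEAP1 loss. Neither gene overlapped between groups (log2 fold change 1.54, SE 0.16, adjusted p = 1.2e-06 and log2 fold change 2.12, SE 0.20, adjusted p = 3.7e-07). Mcm2, Mcm3 and the ribonucleotide reductase subunit Rrm2 rose 2.22-fold, 2.53-fold and 2.55-fold, and Ccnd2, an early G1 cyclin, fell 2.12-fold. The proliferation marker Mki67 gave 4137, 3656, 3826 and 1482 in wild type and 4512, 4085, 3644 and 4432 after KEAP1 loss; wild-type library 4 was low and the other wild-type libraries overlapped the KEAP1-deficient range (log2 fold change 0.45, SE 0.28, adjusted p = 0.21). Ccnd1, a further G1 cyclin, had a log2 value of -0.20 and did not pass. Without wild-type library 4, 18 of the 30 were called higher. Of 18 p53 targets and cell cycle inhibitors 7 rose and 5 fell: Gdf15 and Plk2 rose 6.45-fold and 3.28-fold, while Cdkn1a (p21) fell 1.94-fold and Sesn1 fell 2.17-fold. The ATF4 list held 10 of 17 higher and 3 lower, led by the amino acid transporters Slc1a4 (3.37-fold) and Slc7a5 (2.24-fold), and 6 of 14 unfolded protein response genes rose, the most being Dnajb9, a chaperone of the endoplasmic reticulum (1.53-fold). The muscle covariate ended the call of Ccnd2, with a log2 fold change of -0.60 against -1.09 without it. Under the same covariate, counts higher and lower were 9 and 0 for cell cycle genes, 3 and 3 for p53 list genes, 5 and 2 for ATF4 list genes and 2 and 0 for unfolded protein response genes.

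Of 25 fatty acid genes 5 rose and 15 fell, of 23 glycolysis genes 7 rose and 9 fell, and of 13 glycogen genes 5 rose and 7 fell. Among forms found in muscle, Pfkm, Eno3 and Pygm fell 3.02-fold, 3.04-fold and 3.71-fold, beside the muscle markers Ckm (3.96-fold) and Mb (5.21-fold). Ppara, which drives fatty acid oxidation genes, gave 342, 309, 284 and 286 in wild type and 62.5, 46.3, 40.5 and 49.5 after KEAP1 loss, and Acacb, which controls mitochondrial fatty acid entry, gave 1927, 2544, 2448 and 2131 in wild type and 656, 633, 498 and 645 after KEAP1 loss. Both were lower in all KEAP1-deficient libraries (6.09-fold and 3.72-fold). The glucose transporter of epithelia, Slc2a1, rose 2.30-fold and the muscle transporter Slc2a4 fell 3.99-fold. The 2 muscle genes that rose, Tnnt1 (5.49-fold) and Tnni1 (4.57-fold), encode the troponins of slow fibres, while the fast myosin Myh4 and the fast-fibre calcium buffer Pvalb fell 7.98-fold and 8.20-fold. Of 9 mitochondrially encoded genes 6 fell, mt-Co3 by 1.41-fold. The part of muscle in these values was not tested, nor was that of adipose tissue, whose list sums are given below. Of 23 genes of cholesterol synthesis and uptake 9 rose and 4 fell. Not called with the muscle covariate were Slc2a1 and Myh4, at 0.95 and -3.13 on the log2 scale against 1.20 and -3.00 without it. With this covariate the counts higher and lower were 0 and 7 for fatty acid genes, 2 and 6 for glycolysis genes and 2 and 4 for glycogen genes. They were 0 and 1 for mitochondrially encoded genes and 2 and 2 for cholesterol genes. Striated muscle genes gave 2 and 8, but the covariate is the mean of that same list. The count of that list, and the values of its members with the covariate, are therefore partly built in and decide nothing about it.

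Uox showed the largest rise among the genes named by the rule on fold change. It encodes urate oxidase, which breaks down uric acid and is known from liver. It gave 0, 1.16, 0.622 and 2.02 in wild type and 2941, 2851, 3419 and 3509 after KEAP1 loss, and no wild-type library passed 2.02 while no KEAP1-deficient library lay under 2851 (log2 fold change 10.78, SE 0.82, adjusted p = 9.7e-08). Ada, adenosine deaminase, which is abundant in the upper layers of mouse forestomach and tongue epithelium, moved the other way. It gave 23783, 21389.7, 24690.5 and 11059 in wild type and 441, 386, 390.5 and 445 after KEAP1 loss, with wild-type library 4 the lowest of its group, and fell 46.5-fold without overlap (log2 fold change -5.54, SE 0.30, adjusted p = 4.8e-09). Of the 14 purine genes tested, 9 rose, including Ampd3 (5.24-fold), Pnp (2.51-fold) and Xdh (1.74-fold), which act on AMP, inosine and xanthine, and Ada was the 1 that fell. Slc26a4 (pendrin), an anion exchanger, held 2 reads over the wild-type libraries and gave 804, 496, 660.0 and 519.6 after KEAP1 loss, a ratio of 1944-fold (95% interval 538 to 16054). In its list of 16 transporters 7 rose, among them the borate and water transporter Slc4a11 (6.02-fold) and the aquaglyceroporin Aqp9 (6.17-fold), and 3 fell. Adding the muscle covariate removed the call of Xdh, whose log2 value was 0.49 with it and 0.80 without it.

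Several of the largest falls were in genes that nearly disappeared. Bglap2, an osteocalcin gene, gave 364, 351, 412 and 100.1 in wild type, with library 4 lowest, and held 1 read over the KEAP1-deficient libraries, a ratio of 1729-fold (95% interval 310.3 to 68280.1). Lyg1, a goose-type lysozyme, fell from 190.3, 241, 147 and 123 to 1 read in all, a ratio of 987-fold (95% interval 177 to 38971). Cyp2f2, a xenobiotic-oxidising cytochrome P450, gave 8359.5, 6162, 6375 and 12203 in wild type and 192, 72.7, 233 and 119 after KEAP1 loss; no KEAP1-deficient value came near the wild-type range (56.4-fold). Nmu, the neuropeptide neuromedin U, gave 175, 291, 222 and 128 in wild type and 1.69, 1.60, 0 and 0.728 after KEAP1 loss, and Tmem45a2 gave 371, 523, 335 and 329 in wild type and 3.94, 0.799, 0.751 and 9.46 after KEAP1 loss. Both were at 128 or more in every wild-type library and at 9.46 or less in every KEAP1-deficient library (log2 fold change -6.71, SE 0.32, adjusted p = 5e-10 and log2 fold change -6.75, SE 0.43, adjusted p = 9.7e-09). Dapl1, a marker of early differentiating epithelium, and the calcium-activated channel Ano2 fell 51.0-fold and 108-fold. Sult1d1, a sulfotransferase, and Ankrd24 fell to 1 read and 0 reads, ratios of 396-fold (95% interval 71.1 to 15657) and at least 94.3-fold.

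Most stromal and wound genes rose, and most smooth muscle genes fell. Of 16 fibroblast and matrix genes 11 were higher and 1 lower (median 0.98). Col1a1 gave 30504, 39692, 35213 and 29446 in wild type and 86784, 119442, 100780 and 109263 after KEAP1 loss, and Col3a1 gave 50854, 65714, 55094 and 49375 in wild type and 142377, 181444, 147818 and 172827 after KEAP1 loss. These fibrillar collagens did not overlap between groups (log2 fold change 1.63, SE 0.19, adjusted p = 4.1e-06 and log2 fold change 1.55, SE 0.19, adjusted p = 9.2e-06), while decorin, Dcn, and Pdgfra had log2 values of 0.05 and 0.00. Of 12 wound protease genes 8 rose and none fell: the protease inhibitor Timp1 gave 31.8, 163, 39.8 and 33.6 in wild type and 604, 477, 332 and 565 after KEAP1 loss, without overlap (9.19-fold), and the urokinase receptor Plaur and the gelatinase Mmp9 rose 6.69-fold and 8.47-fold. Of 10 endothelial genes 5 rose, Pecam1 by 1.72-fold. In the smooth muscle list 9 of 10 fell, Lmod1 by 6.08-fold and Synpo2 by 1.51-fold. Of the 10, only these 2 did not overlap between groups, against 9938 of all 19857 genes tested. The list summed to 25289 to 43832 in wild type and to 28410, 13400, 13410 and 13650 after KEAP1 loss, so KEAP1-deficient library 1 lay inside the wild-type range. Of 11 nerve and glia genes 4 fell and none rose. Fosl1, an AP-1 subunit of migrating keratinocytes, gave 16.9, 26.1, 42.3 and 8.74 in wild type and 274, 177, 139 and 181 after KEAP1 loss, with no overlap (8.84-fold), in a list of immediate early genes with 8 of 16 higher and 1 lower. Under the muscle covariate the calls of Timp1 and Mmp9 did not hold, with log2 values of 3.70 and 1.84 against 3.20 and 3.08 without it. Synpo2 changed sign with it, from -0.60 to 0.22, and did not pass. Counts higher and lower under the striated muscle covariate were 7 and 0 for fibroblast genes, 2 and 0 for wound protease genes, 2 and 0 for endothelial genes, 0 and 1 for smooth muscle genes, 0 and 0 for nerve and glia genes and 4 and 0 for immediate early genes.

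Cyp1b1 rose 4.75-fold and Cyp1a1 fell 6.28-fold among the 7 aryl hydrocarbon receptor genes, of which 2 rose and 3 fell. Of 14 Notch pathway genes 2 rose and 3 fell, with Notch2 at 0.01 and not called. Of 8 mucins 2 fell, Muc15 by 5.10-fold. Of markers of organs that a dissection could include, 1 of 6 thyroid and airway genes fell, of liver and kidney none of 6 was called, and of 10 adipose genes 1 fell. The adipose list nevertheless summed to 5858 to 14074 normalised counts in wild type and 2976 to 4097 after KEAP1 loss, without overlap. In the glandular stomach list 2 of 6 rose and 1 fell, and of 7 red blood cell genes 3 fell. Red blood cell genes summed to 9582 to 148466 in wild type and 5940 to 11633 after KEAP1 loss, which overlapped. None of 2 melanocyte genes and none of 5 sex-linked genes was called. At an unadjusted p of 0.05, 10447 of all genes tested passed. Without wild-type library 4, counts higher and lower moved to 6 and 1 for NADPH genes, 1 and 3 for aryl hydrocarbon receptor genes, 5 and 2 for kallikrein genes, 0 and 1 for mucins, 17 and 1 for chemokine and antimicrobial genes, 18 and 2 for cell cycle genes, 3 and 7 for glycogen genes, 7 and 2 for immediate early genes, 0 and 2 for adipose genes, 0 and 2 for thyroid and airway genes and 0 and 1 for red blood cell genes. With the striated muscle mean as a covariate, Cyp1a1 no longer passed, at -3.10 on the log2 scale against -2.65 without it. The covariate changed the counts higher and lower to 1 and 0 for aryl hydrocarbon receptor genes, 0 and 2 for Notch pathway genes, 0 and 1 for mucins, 0 and 0 for glandular genes and 0 and 0 for red blood cell genes.

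Adult KEAP1 loss and the homozygous L30F substitution, a change in NRF2 known to weaken its binding to KEAP1, did not differ detectably in Nqo1 and glutathione ligase genes and differed in keratin, cytokine and leukocyte genes. Between these groups 5248 genes (26.4%) were called, 2680 (13.5%) higher with KEAP1 loss and 2568 (12.9%) lower. Homozygote libraries are shallower, at 10.9 to 11.6 M reads; with reads thinned to equal depth 4592 genes were called, and with the striated muscle covariate 80. The mean log2 value of the muscle list was 12.87 to 13.56 in homozygotes, above the range after KEAP1 loss given earlier. Nqo1 gave 6815, 5515, 4833 and 8055 in homozygotes, a range that spans the KEAP1-deficient values given above (log2 difference -0.06, SE 0.13, adjusted p = 0.78). Gclc and Gclm differed by 0.07 and -0.07 and did not pass, with SEs of 0.15 and 0.10, while Slc7a11 was higher after KEAP1 loss (log2 difference 0.54, SE 0.12, adjusted p = 0.0033). Nfe2l2 transcript differed: homozygotes gave 1806, 1618, 1204 and 1199, below every KEAP1-deficient library (log2 difference 1.58, SE 0.12, adjusted p = 3.1e-07). Krt4 gave 139757, 164254, 131669 and 239352 in homozygotes and Krt15 gave 4307, 5735, 4865 and 7340.2. These values lie between those of wild type and KEAP1 loss (log2 difference -4.37, SE 0.40, adjusted p = 3.4e-06 and log2 difference -4.23, SE 0.25, adjusted p = 1.1e-07). Tgm6 and Csn1s1 (a casein) had no read in any adult wild-type or homozygote library. Csn1s1 had a mean of 103 after adult KEAP1 loss, but in pups it gave 145.1, 0 and 2.57 in wild type and 600.5, 0 and 0 after KEAP1 loss. Slc26a4 gave 0, 1.66, 4.59 and 0 in homozygotes, and Nmu gave 47.3, 71.3, 38.2 and 80.2 in homozygotes against at most 1.69 after KEAP1 loss (log2 difference -4.95, SE 0.32, adjusted p = 1.1e-07). By list, 22 of 24 interferon genes, 13 of 17 antigen presentation genes, 18 of 25 chemokine and antimicrobial genes and 10 of 15 T and natural killer genes were higher with KEAP1 loss. Lower in these lists were 0, 0, 1 and 0. Of 9 glutathione genes 3 were higher and 0 lower, and of 23 glutathione S-transferases 2 and 5. Of 25 quinone, carbonyl and epoxide enzymes 7 were higher and 6 lower, and of 14 aldehyde dehydrogenases 3 and 7. These counts are to be read against the 13.5% higher and 12.9% lower among all genes. Of the genes named in this comparison, Tgm6, Csn1s1, Slc26a4, Nmu, Krt15 and Nfe2l2 were still called with the muscle covariate. Slc7a11 and Krt4 were not, with log2 differences of 0.85 and -4.78.

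The effect of KEAP1 loss differed between adults and pups for 8967 of 19031 genes (47.1%), 3922 (20.6%) with a larger or more positive log2 fold change in adults and 5045 (26.5%) with a smaller or more negative one. The tables were normalized separately, so only effects are compared. Of 9 glutathione synthesis genes 6 had the more negative effect in adults and none the more positive one. Nqo1 gave 72.1, 80.9 and 77.0 in wild-type pups and 13212, 12026 and 11118 in KEAP1-deficient pups, a log2 rise of 7.28 against 2.45 in adults (difference -4.83, SE 0.15, adjusted p = 9.2e-18). Slc7a11 rose by 10.56 in pups and 5.26 in adults, and Gclc by 6.80 and 5.09. Gpx2 rose by 7.05 in pups and 1.07 in adults, and Hmox1 rose by 4.81 in pups against 0.26 in adults, where it did not pass. Keap1 itself changed by -0.46 and -0.60 (difference -0.14, SE 0.15, adjusted p = 0.45). Among differentiation genes, Mt4, Ada, Lor and Krt13 moved in opposite directions, with Krt13 at 1.92 in pups and -2.23 in adults, whereas Krt4 (-1.58 and -6.09) and Calml3 (-1.44 and -3.06) fell at both ages. Sprr2e (9.52 and 10.31) and Sprr2f (6.24 and 9.66) rose at both. Mt4 gave 7.12, 5.34 and 21.4 in wild-type pups and 6237, 6939 and 6020.4 in KEAP1-deficient pups, a rise, where adults fell (difference -12.17, SE 0.44, adjusted p = 4.4e-09). Ada gave 32.0, 28.5 and 29.9 and 2013, 1599 and 1493 in the same pup groups (difference -11.30, SE 0.34, adjusted p = 2.7e-16). Lor rose by 6.03 in pups, against -3.79 in adults, a difference of -9.83 that was -9.12 without wild-type pup library 1, and Krt78 and Lce1j differed by -8.08 and -10.80. Of 57 cornified envelope genes 39 had the more negative effect in adults and 7 the more positive one, and of 23 suprabasal genes 20 and 0.

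**Figure D5:**
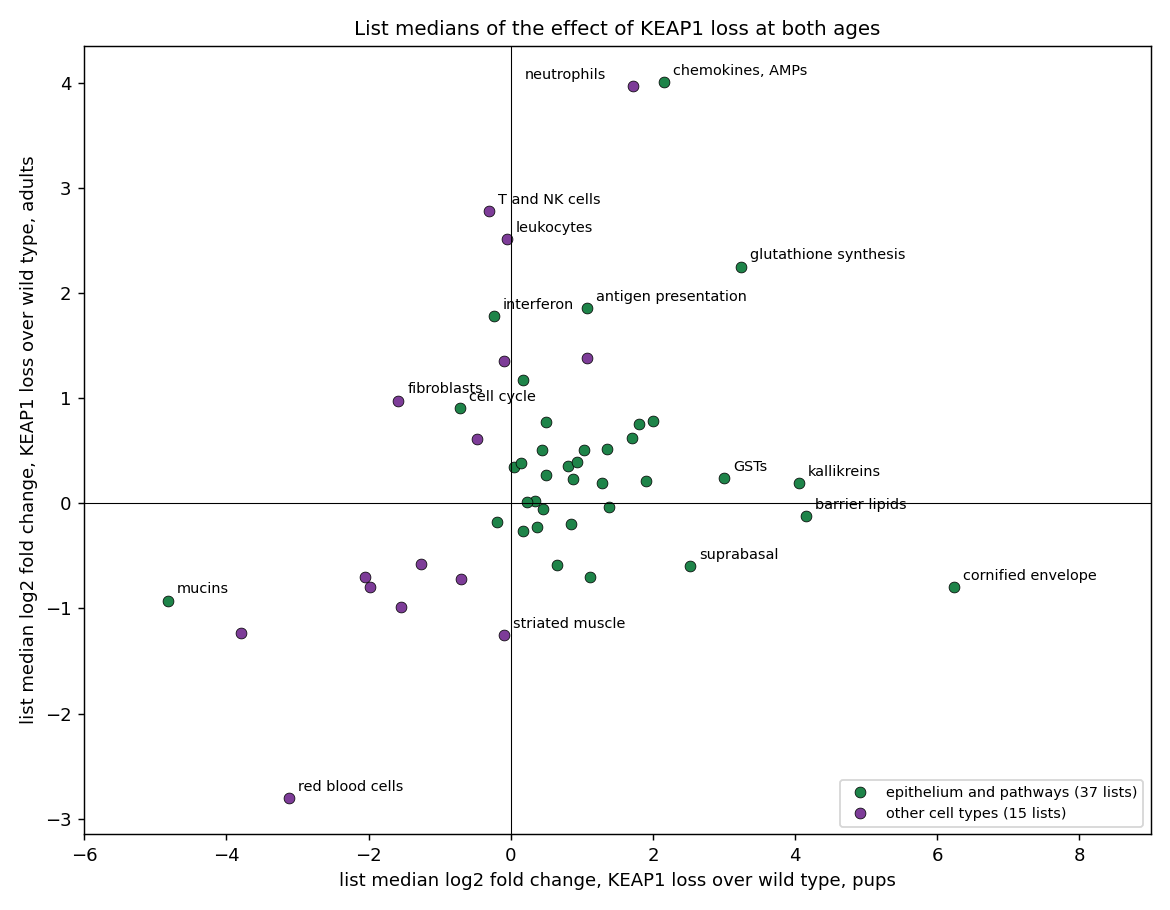
Median log2 fold change of KEAP1 loss over wild type for each of 52 lists with at least 5 genes tested at both ages, the sex-linked and mitochondrially encoded lists left out: pups on the x axis, adults on the y axis. Cornified envelope and barrier lipid lists lie at high pup and low adult values, and fibroblast, cell cycle and T cell lists lie below 0 in pups and above 0 in adults.

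A more positive effect in adults was found for 15 of 16 fibroblast genes, 25 of 30 cell cycle genes and 13 of 23 interferon genes tested at both ages. None of these lists held a gene with a more negative one, whereas the interleukin-1 and interleukin-36 list held 4 of 15 more positive and 9 more negative. Uox gave 30.3, 21.3 and 114 in wild-type pups and 3.20, 51.9 and 61.6 in KEAP1-deficient pups, which overlapped (difference 11.62, SE 1.57, adjusted p = 2.4e-05). Without 1 KEAP1-deficient pup library the difference of Uox ran from 10.36 (library 1) to 12.31 (library 3), and without wild-type pup library 3 it was 10.92. Plch1, a phospholipase C, rose by 7.57 in adults and changed by -3.09 in pups (difference 10.66, SE 1.07, adjusted p = 6.3e-09). Col1a1 fell in pups (-1.88) and rose in adults (1.63). Mcm5 changed by -0.18 in pups and 1.54 in adults (difference 1.72, SE 0.21, adjusted p = 1.2e-07). Stress keratins rose at both ages and more in adults, 4 of 4, with Krt6a at 2.95 and 6.53 and Krt16 at 7.54 and 9.64. Age, Cre driver and the time since KEAP1 was lost all differ between the experiments and cannot be told apart.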

How the data were processed

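RNA was extracted from mouse esophagus and sequenced from stranded libraries, per the labels' protocols. Reads were quantified with Salmon, and the genome build listed is GRCm39, per the submitters' processing notes, with no versions given. The authors deposited log2 values of normalised counts with 4 added before the logarithm, 1 table for adults and 1 for pups. These were turned back into normalised counts, from which whole reads were recovered for 100% of values up to 1000 reads (tolerance 0.1). Depth limits precision most in the homozygotes.

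The test was limma 3.58.1 (R 4.3.3, statmod 1.5.0), with a mean-variance trend and robust shrinkage, on log2(normalised count + 1), over all 16 adult libraries, with genes at 1 or more in at least 4 libraries and Benjamini-Hochberg adjusted p below 0.05. Pups were fitted apart and the effects subtracted. The difference was tested by a t test with the combined SE and Welch-Satterthwaite degrees of freedom, with the same adjustment. On simulated data, of 100 genes changed 2-fold, 100 were recovered for adult KEAP1 loss against wild type and 99 against homozygotes (19724 genes each), and 73 for adults against pups (18879 genes). Unchanged genes called numbered 2, 16 and 7. The simulation gave all genes the same dispersion and planted changes only in genes with a wild-type mean of at least 50. It left nearly all other genes unchanged and held no library that stood apart, unlike the data. Its recovery does not carry over to genes with wider spread or lower levels. No replicates were near-identical. Alternatives were offsets, scaling, filters, limma-voom on recovered reads, fewer groups, a replicate block, a striated muscle covariate, thinning and leaving out libraries.

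The members and lists were chosen with earlier results of these data known. Genes were named by rule: Keap1, Nfe2l2 and Nqo1, the 15 largest rises and falls without overlap and a mean of at least 50 in the higher group, the 8 largest differences each way in the other comparisons and, from each list, the 6 smallest adjusted p, the 3 largest changes and the 3 highest members not called. Another 28 were named after their values were seen: Aldh3a1, Cbr1, Cbr3, Ccnd2, Chac1, Cxcl1, Cxcl2, Cxcl5, Dsc2, Dsg3, Egfr, Erbb3, Evpl, Gstm3, Idh2, Il17a, Il22, Lce3f, Lcn2, Lor, Mgst1, Ppl, Prdx2, Slc2a1, Sprr3, Tnni1, Txnip and Xdh. One gene that the rule names is not reported here.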

Additional observations from a re-analysis of the deposited data

Results flagged for a closer look

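For the 223 genes named for adult KEAP1 loss, the gap of the highest or lowest library to its nearest neighbour was set against the range of its group of 4, and 36 of 446 groups passed Dixon's 95% limit. Groups with no range or with low counts in every library were not put to this limit. They are among the 446, so the share that passed is understated. Chance alone passes about 1 in 20 of the groups put to it. By library, 11 were wild-type library 4, 7 KEAP1-deficient library 3, 5 KEAP1-deficient library 1, 5 wild-type library 3, 4 wild-type library 2 and 4 KEAP1-deficient library 2. In wild-type library 4, normalised counts stood apart on the high side for Ccnd1 (2317 against 1144 to 1299.9), Dnajb9 (614 against 403 to 424), Krt16 (216 against 79.3 to 101), Krt17 (516 against 49.4 to 93.9), Krt6a (4445 against 1258 to 1513), Mcm2 (410.0 against 286 to 300.3), Pvalb (1244 against 454 to 577), Sprr2d (227 against 22.4 to 27.8) and Sprr2i (37.6 against 11.5 to 12.4). In wild-type library 4, normalised counts stood apart on the low side for Akr1b8 (235 against 334 to 352) and Aqp9 (27.6 against 50.1 to 53.5). In wild-type library 2, normalised counts stood apart on the high side for Aldh1l1 (195 against 116 to 128), Cxcl5 (20.3 against 1.34 to 3.73) and Timp1 (163 against 31.8 to 39.8). In wild-type library 2, normalised counts stood apart on the low side for Prdx1 (3145 against 3273 to 3287). In wild-type library 3, normalised counts stood apart on the high side for Areg (27.4 against 21.0 to 22.0), C1qb (1305 against 696 to 779), Il1b (52.9 against 5.42 to 13.3), Ngp (16.2 against 0 to 2.03) and Sult1d1 (116 against 50.4 to 61.6). In KEAP1-deficient library 1, normalised counts stood apart on the high side for Cxcl1 (248 against 59.1 to 78.6), Gsr (3896 against 3023 to 3171), Lmod1 (379 against 161 to 172) and Myh4 (2752 against 511 to 601). In KEAP1-deficient library 1, normalised counts stood apart on the low side for Cxcl10 (80.6 against 96.8 to 99.9). In KEAP1-deficient library 2, normalised counts stood apart on the high side for Mpo (13.6 against 0 to 1.69) and Pvalb (94.3 against 72.1 to 75.0). In KEAP1-deficient library 2, normalised counts stood apart on the low side for Dsc2 (15284 against 21015 to 21897) and Muc15 (108 against 161 to 164). In KEAP1-deficient library 3, normalised counts stood apart on the high side for Pdgfra (3067 against 2852 to 2874) and Trbc2 (116 against 96.8 to 98.6). In KEAP1-deficient library 3, normalised counts stood apart on the low side for Acacb (498 against 633 to 656), Ccne1 (159.9 against 196 to 202), Epgn (841 against 1379 to 1479.5), Hmox1 (1591 against 2172 to 2259.8) and Pfkm (2127 against 2726 to 2767). The values in brackets are the library's own and the range of the other 3. The muscle genes Myh4 (striated) and Lmod1 (smooth) stood high in KEAP1-deficient library 1.

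The effect of KEAP1 loss differed between adults and pups, by the t test on the difference of the separately fitted effects, for these named genes. The log2 effect was more positive in adults by 3.51 for Col1a1, 2.10 for Krt16, 3.58 for Krt6a, 1.72 for Mcm5, 10.66 for Plch1, 3.42 for Sprr2f and 11.62 for Uox. It was more negative in adults, with differences of -11.30 for Ada, -1.62 for Calml3, -1.71 for Gclc, -5.98 for Gpx2, -4.55 for Hmox1, -4.15 for Krt13, -4.51 for Krt4, -8.08 for Krt78, -10.80 for Lce1j, -9.83 for Lor, -12.17 for Mt4, -4.83 for Nqo1 and -5.30 for Slc7a11. Age, driver and time since deletion differ with the comparison and cannot be told apart.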

How the results depend on the processing

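Leaving out 1 library at a time gave 8246 to 8842 genes for KEAP1 loss against wild type, 4097 to 5216 against L30F homozygotes and 8164 to 8757 for adults against pups. With the striated muscle mean as a covariate the counts were 3507, 80 and 5492, and with a 2-fold minimum added they were 3515, 1713 and 4986. Offsets, scaling, filters, limma-voom, fewer groups and thinning kept each count within 1.5 times. Across 256 results on named genes, the muscle covariate ended 33 calls and reversed Synpo2, to 0.22 on the log2 scale, and the 2-fold minimum ended 32. Leaving out 1 library ended the calls of Erbb3 and Idh2, and thinning that of Idh2. Apart from the replicate block, no other alternative run ended a call. An offset of 4 moved 38 values by over 1.5 times and limma-voom 22. The causes were not tested.

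Same-numbered adult libraries correlated at 0.0111, -0.0493, 0.014 and 0.0227 in their deviations from the group means, which gave no sign of pairing by number. With 4 libraries per group such correlations cannot exclude a pairing. With the replicate block 9178, 5096 and 9005 genes were called, and of the named genes Erbb3 lost its call (adjusted p = 0.06 in limma). A Ddx3y covariate, coded as high or low in each pup library, gave 9035 for adults against pups. All wild-type and KEAP1-deficient pup libraries were on the high side, at 542 to 1203 normalised counts. The covariate could therefore change only the estimate of spread, and it is no check of sex in this effect. It was not run for the adult comparisons, where sex did not vary. Thinning was not run for adults against pups.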
